A study of Mus musculus with 8 samples.

Results

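Microglia identity and complement C1q genes were followed in brain RNA of mice as 9 genes: P2ry12, Tmem119, Cx3cr1, Csf1r, Aif1, C1qa, C1qb, C1qc and Trem2. They were taken by gene symbol, a set named with earlier results of these data known. Each had 1 row among the 22206 rows of the table, of which 19572 carried 1 gene symbol and stood for 19505 genes, so all 9 were measured. The arrays (Clariom S, 1 per RNA sample) came from male mice of the outbred ICR strain, bought at 8 weeks of age and given 1 week to acclimatize, which then received water or rosemary extract (RE) by mouth for 7 days. Of the 4 groups with 2 arrays each, water with the tail suspension test (TST), low-dose RE with TST, as well as high-dose RE with TST, comprised mice hung by the tail, a short stressor in which immobility is scored, and water without TST was the group that was not. Mice on the low dose got 10 mg/kg. For the high dose the labels disagree, the titles giving 100 mg/kg, the source names 50 mg/kg. The agent label of the group without TST reads positive control, but grouping here goes by title. The tissue label reads limbic system, the description hippocampus. Each group had 7 mice, and the labels leave unsaid how many of them gave each RNA sample, so a p-value measures only the spread between these samples, which may be technical.

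Microglia are the resident macrophages of the brain. In the undisturbed state they carry a homeostatic set of surface proteins, and on injury or inflammation they are known to lose part of that set while complement and lipid-sensing genes can rise. P2RY12 is the ADP receptor that draws microglial processes to damaged cells, TMEM119 a membrane protein used as a marker of resident microglia, CX3CR1 the receptor for the neuronal chemokine CX3CL1, and CSF1R the receptor tyrosine kinase on which microglial survival depends, with CSF1 and IL34 as its ligands. AIF1, also called IBA1, binds actin and marks microglia in any state. C1QA, C1QB and C1QC are the chains of C1q, the recognition molecule of the classical complement pathway, which tags synapses for removal and in the brain is made largely by microglia. TREM2 is a lipid receptor that signals through the adaptor TYROBP. In whole-tissue RNA, fewer microglia and less RNA per microglial cell cannot be told apart.

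Of the promoter windows supplied from RefSeq (GRCm38.p6, 250 bases before to 50 after the start), P2ry12, Cx3cr1, Aif1, C1qb, C1qc and Trem2 had one, which makes 6 of the 9. They were searched on both strands for AGGAAG, the core of the site of PU.1, the ETS factor that macrophages depend on, and for the ETS-IRF composite element, where PU.1 binds beside an interferon regulatory factor. The first was found in 4 of the 6 windows and in 35.4% of all 32851 windows, the second in 0 of the 6 and in 2.72% of all. The motifs can overlap, and a match is a stretch of letters that says nothing of binding. The 4 windows with AGGAAG (or CTTCCT, the same letters on the other strand) are shown because they hold the motif, which is in capitals. They belong to P2ry12, C1qb, C1qc and Trem2. C1qb, C1qc and C1qa lie next to each other on chromosome 4. The windows are chr3:59262936-59263235 (minus strand), chr4:136886151-136886450 (minus), chr4:136892865-136893164 (minus) and chr17:48346151-48346450 (plus).
P2ry12: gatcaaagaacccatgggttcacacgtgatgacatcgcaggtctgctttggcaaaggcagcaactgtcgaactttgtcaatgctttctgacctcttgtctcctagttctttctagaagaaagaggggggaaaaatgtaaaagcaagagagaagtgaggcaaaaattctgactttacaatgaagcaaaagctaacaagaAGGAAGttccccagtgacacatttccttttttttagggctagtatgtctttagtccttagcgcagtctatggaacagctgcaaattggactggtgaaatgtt
C1qb: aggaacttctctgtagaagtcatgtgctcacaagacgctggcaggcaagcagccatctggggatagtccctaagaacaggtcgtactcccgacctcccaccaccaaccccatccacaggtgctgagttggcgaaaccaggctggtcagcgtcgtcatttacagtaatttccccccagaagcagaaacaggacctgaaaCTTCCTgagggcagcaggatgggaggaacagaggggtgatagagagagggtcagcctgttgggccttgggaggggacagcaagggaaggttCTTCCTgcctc
C1qc: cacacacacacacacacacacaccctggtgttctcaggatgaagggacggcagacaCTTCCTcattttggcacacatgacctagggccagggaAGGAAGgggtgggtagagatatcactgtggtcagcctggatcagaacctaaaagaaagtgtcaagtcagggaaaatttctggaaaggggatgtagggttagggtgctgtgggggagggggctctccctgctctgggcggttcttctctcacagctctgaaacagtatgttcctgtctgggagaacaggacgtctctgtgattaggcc
Trem2: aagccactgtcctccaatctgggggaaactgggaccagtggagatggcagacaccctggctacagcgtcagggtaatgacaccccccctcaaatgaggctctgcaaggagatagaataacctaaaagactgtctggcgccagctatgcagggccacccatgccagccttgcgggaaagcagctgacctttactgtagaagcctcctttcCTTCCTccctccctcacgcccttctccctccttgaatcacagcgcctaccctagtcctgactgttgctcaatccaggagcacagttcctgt

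1 array stood apart before any comparison. Across rows, water with TST replicate 2 correlated with the other arrays at 0.967 to 0.978, and the other 7 arrays among themselves at 0.983 to 0.993. Of 11 measured markers of cerebellar neurons, 11 had their highest value on it, and their mean lay 4.80 above its 8-array mean there and 2.74 above it on replicate 1 of water without TST, against -1.60 to -0.58 on the other 6 arrays. All 10 measured markers of forebrain excitatory neurons were lowest on it, with a mean of -2.17, against -0.06 to 0.62 on the other 7 arrays. None of these markers can be called absent, since no detection calls come with the values. Choroid plexus markers were also lowest there, at -1.30 over 9 genes, 6 of them with their lowest value on it. The differences that rest on this array are given with and without it.

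None of the 9 genes passed a test between groups on all 8 arrays, and for 6 of them the arrays of water with TST lay further apart than those of any other group. Values below are deposited log2 values in the order replicate 1, replicate 2. Signal of a probe cannot be set against that of another probe, so only the course of each gene over the arrays is compared. C1qc and Trem2 lay below the median of all values, 7.47, on all 8 arrays, and no detection call shows whether such signals are above background.

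P2ry12 stood at 12.54 and 10.20 in water with TST, 12.21 and 11.73 in low-dose RE, 11.83 and 12.17 in high-dose RE, and 12.45 and 12.81 in water without TST. Its lowest value, on water with TST replicate 2, lay 1.53 below the lowest of the other 7 arrays. Tmem119 stood at 7.94 and 7.65 in water with TST, 7.38 and 7.89 in low-dose RE, 7.61 and 7.57 in high-dose RE, and 6.50 and 7.55 in water without TST. Here the low array was water without TST replicate 1, 0.88 below the next, and water with TST replicate 2 was among the 3 highest. P2ry12 and Tmem119, both used to tell resident microglia from other macrophages, thus had their low values on different arrays. Cx3cr1 stood at 7.51 and 7.09 in water with TST, 7.71 and 7.09 in low-dose RE, 6.93 and 7.67 in high-dose RE, and 7.21 and 7.47 in water without TST. All 4 groups overlapped, and the whole range was 0.78. Csf1r stood at 10.07 and 8.45 in water with TST, 9.98 and 9.36 in low-dose RE, 9.36 and 9.83 in high-dose RE, and 9.69 and 9.71 in water without TST. Its value on water with TST replicate 2 lay 0.91 below all other arrays, which spanned 0.71.

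Aif1 had the widest range of the 9, at 2.83. It stood at 8.97 and 6.43 in water with TST, 9.26 and 7.51 in low-dose RE, 8.76 and 8.82 in high-dose RE, and 7.85 and 8.66 in water without TST. The replicate pairs of water with TST and of low-dose RE lay 2.54 and 1.75 apart, and that of high-dose RE 0.06 apart.

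**Figure D1:**
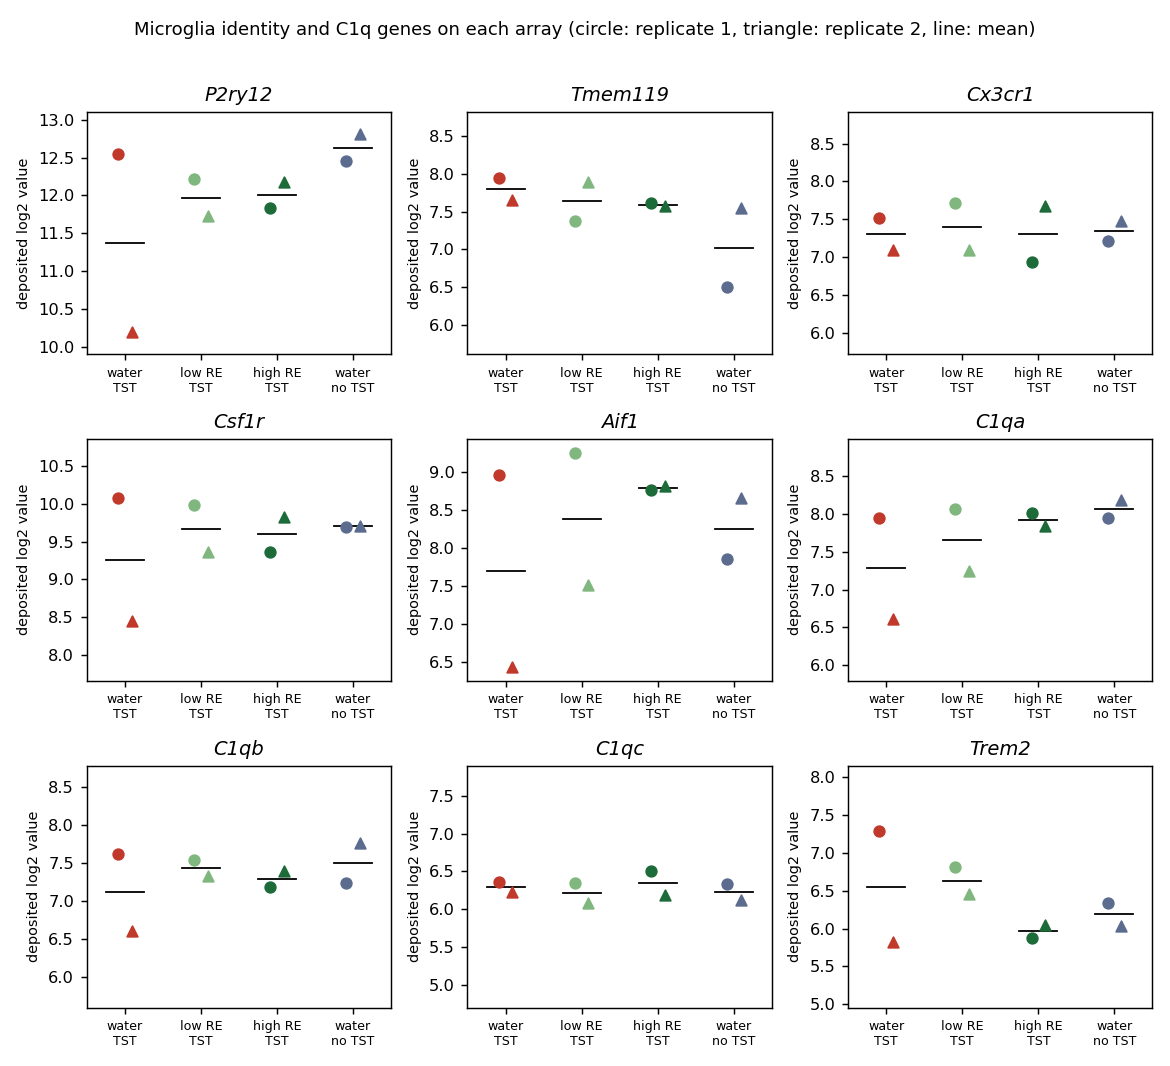
Deposited log2 value (vertical axes, each spanning 3.2 units) of the 9 genes on each array by group, with replicate 1 as a circle, replicate 2 as a triangle and the group mean as a line. P2ry12, Csf1r, Aif1, C1qa and C1qb have their lowest point on replicate 2 of water with TST, while C1qc stays between 6.09 and 6.51 on all arrays.

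The chains of C1q did not vary alike. C1qa stood at 7.95 and 6.61 in water with TST, 8.07 and 7.24 in low-dose RE, 8.01 and 7.84 in high-dose RE, and 7.94 and 8.18 in water without TST. C1qb stood at 7.62 and 6.61 in water with TST, 7.54 and 7.33 in low-dose RE, 7.19 and 7.39 in high-dose RE, and 7.24 and 7.77 in water without TST. Both were lowest on water with TST replicate 2, by 0.63 and 0.58 below all other arrays. C1qc, whose gene lies between the other two, stood at 6.36 and 6.23 in water with TST, 6.35 and 6.09 in low-dose RE, 6.51 and 6.19 in high-dose RE, and 6.33 and 6.12 in water without TST. Its whole range was 0.42, the root mean square of its centred values was 0.132, and 94.2% of all rows varied more.

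Trem2 stood at 7.29 and 5.82 in water with TST, 6.81 and 6.46 in low-dose RE, 5.88 and 6.05 in high-dose RE, and 6.34 and 6.04 in water without TST. Its highest and its lowest value both fell in water with TST. The low-dose arrays lay above both high-dose arrays, a separation in that direction that 13.7% of all rows had. On water with TST replicate 2 it lay only 0.06 below the next array.

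**Figure D2:**
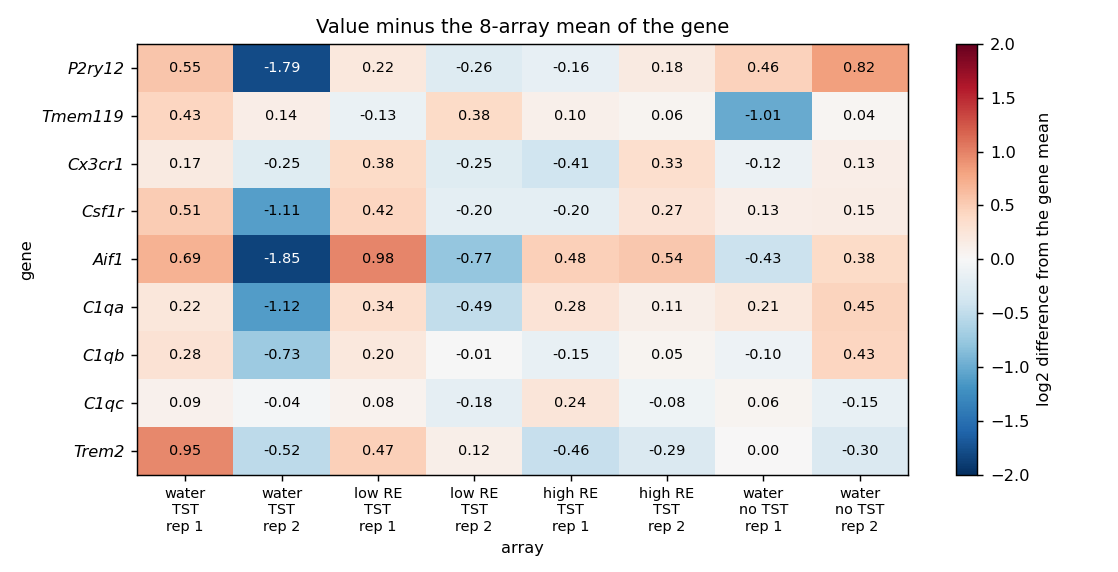
Log2 value of each gene (rows) on each array (columns) minus the gene's mean over the 8 arrays, with the number printed in each cell. On water with TST replicate 2, 8 of the 9 genes are below their own mean and Tmem119 is not, and on water with TST replicate 1 none of them is below it.

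Water with TST replicate 2 held the lowest value of 6 of the 9 genes (P2ry12, Csf1r, Aif1, C1qa, C1qb and Trem2), where 20.7% of all rows were below the other 7 arrays on it. For 5 of them it was lower by more than 0.5, which held for 6.09% of all rows. On the same array the forebrain excitatory and choroid plexus markers were low and the cerebellar markers high. On water without TST replicate 1 the cerebellar markers were also raised, while the mean of the forebrain excitatory markers was at 0.05. There P2ry12 was at 12.45, Csf1r at 9.69, Aif1 at 7.85, C1qa at 7.94, C1qb at 7.24 and Trem2 at 6.34. Of the 9 genes, 4 were below their own mean on that array, and Tmem119 was at its lowest. The part of these markers in the values of the 9 genes was not tested.

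Between replicates, the median gap of the 9 genes was 1.34 in water with TST, 0.51 in low-dose RE, 0.20 in high-dose RE and 0.30 in water without TST. The same median over all rows was 0.37, 0.33, 0.22 and 0.25 in those groups. In water with TST, 6 of the 9 genes had replicates more than 1 log2 unit apart, as did 12.7% of all rows. Outside that group such a gap was found only for Aif1 in low-dose RE and Tmem119 in water without TST.

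Among the 36 pairs of the 9 genes, the closest courses over the 8 arrays, by the root mean square difference of centred values, were those of Csf1r and C1qb (0.241), Csf1r and C1qa (0.257), Cx3cr1 and C1qb (0.266) and C1qa and C1qb (0.294). The most distant were Tmem119 and Aif1 (0.962) and P2ry12 and Tmem119 (0.944). So a C1q chain was nearer to the growth factor receptor gene Csf1r than to C1qc (0.470 for C1qa, 0.368 for C1qb), and the courses did not divide into homeostatic genes and C1q chains. All pairs share the same 8 arrays, and a gene of small range is near any other of small range.

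To set the homeostatic genes against C1q and Trem2, a contrast used as an index of neuroinflammation, the centred values of P2ry12, Tmem119, Cx3cr1 and Csf1r and of the 3 chains were averaged on each array. The C1q mean minus the homeostatic mean was -0.22 and 0.12 in water with TST, -0.01 and -0.15 in low-dose RE, 0.29 and -0.18 in high-dose RE, and 0.19 and -0.04 in water without TST. In 3 of the 4 groups the replicates had opposite signs, and all 4 groups overlapped. This holds for a mean that includes C1qc, whose whole range was 0.42, and may not hold without it. C1qc also lay below the median of all values on all 8 arrays. An index of C1qa and C1qb alone was not made. Trem2 minus the homeostatic mean was 0.54 and 0.24 in water with TST, 0.25 and 0.21 in low-dose RE, -0.29 and -0.50 in high-dose RE, and 0.14 and -0.58 in water without TST. It was above 0 on all 4 arrays of water with TST and low-dose RE, and below 0 on both high-dose arrays. No p is given for these means, which were made over chosen genes. Without water with TST replicate 2, the C1q index of water with TST minus that of water without TST was -0.295, against -0.12 with it. For low-dose RE minus water with TST it was 0.14, against -0.03, and for high-dose RE 0.27, against 0.10. For Trem2 minus the homeostatic mean these 3 differences were 0.76, -0.31 and -0.93 without that array, against 0.61, -0.16 and -0.78 with it.

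**Figure D3:**
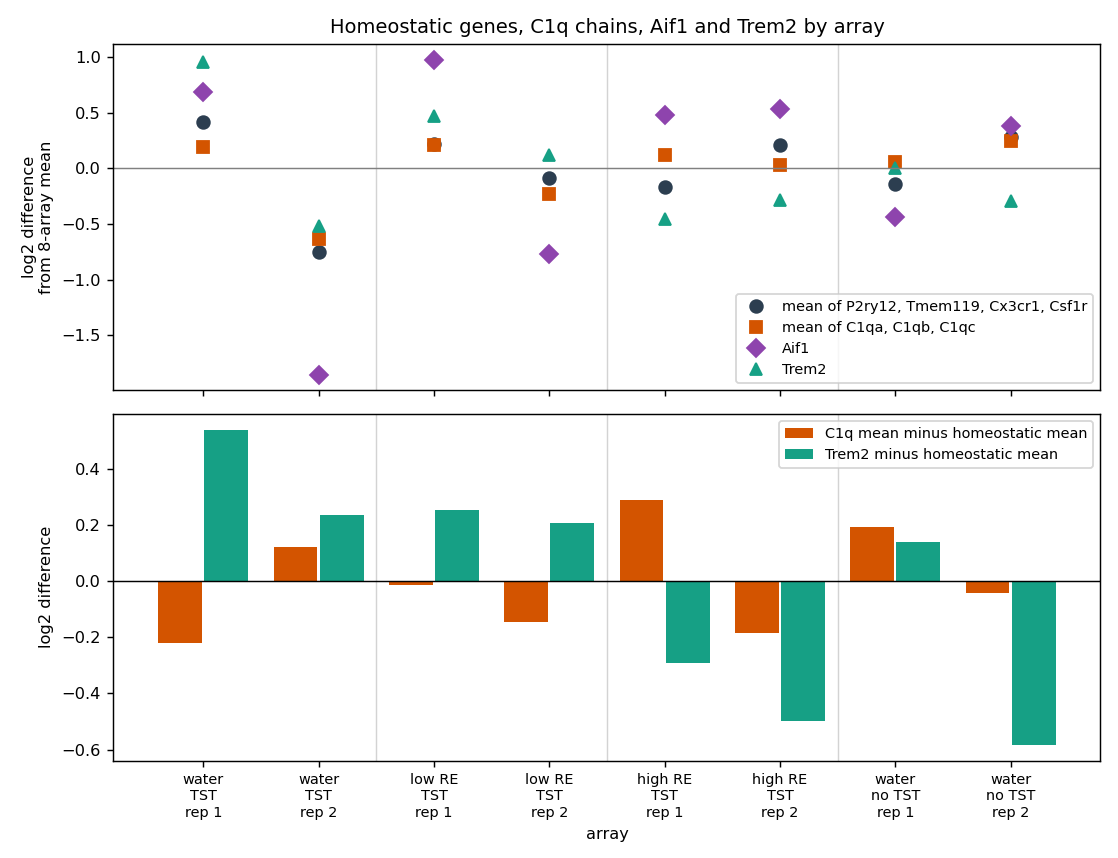
Upper panel, log2 difference from the 8-array mean of the homeostatic mean, the C1q mean, Aif1 and Trem2 on each array; lower panel, the C1q mean and Trem2 each minus the homeostatic mean. The C1q bars, whose mean includes C1qc, change sign within 3 of the 4 groups, and the Trem2 bars are negative on both high-dose arrays.

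The first comparison asked what TST changed in mice given water. None of the 9 genes passed the study's threshold, a fold change above 1.2 with an unadjusted p under 0.05, which 2.55% of all rows passed. After adjustment limma called 0 rows anywhere in the table, and 567 had an unadjusted p under 0.05. P2ry12 averaged 11.37 in water with TST and 12.63 in water without TST, a log2 difference of -1.26 (95% interval -2.71 to 0.19, SE 0.634, n = 2 arrays each; limma, adjusted p = 0.997). Tmem119 averaged 7.80 in water with TST and 7.03 in water without TST, a difference of 0.77 (interval -0.06 to 1.60; limma, adjusted p = 0.997). It was the only one of the 9 with both arrays of a group beyond both of the other, as 14.2% of all rows were in that direction and 13.3% in the other. C1qa was at -0.78 (interval -1.80 to 0.24), C1qb at -0.39 (-1.21 to 0.43) and C1qc at 0.07 (-0.48 to 0.62). Aif1 was at -0.555 (-2.41 to 1.30), Csf1r at -0.44 (-1.56 to 0.68), Cx3cr1 at -0.04 (-0.81 to 0.73) and Trem2 at 0.365 (-0.63 to 1.36). The median of the 9 was -0.39, where that of all rows was 0.005.

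Without water with TST replicate 2 the course was another. P2ry12 was then at -0.09 and C1qa at -0.11, Csf1r at 0.37, Aif1 at 0.715 and C1qb at 0.115. Trem2 passed the study's threshold at 1.10 (SE 0.293; limma, adjusted p = 0.998), as did 3.29% of all rows. Without replicate 1 of the same group, P2ry12 was at -2.43, Csf1r at -1.25, Aif1 at -1.825, C1qa at -1.45 and C1qb at -0.895. Trem2 was then at -0.37, Cx3cr1 at -0.25, C1qc at 0.005 and Tmem119 at 0.625. The fit without water without TST replicate 2 put Tmem119 past the threshold at 1.295 (2.19% of all rows passed), and without replicate 1 of that group it was at 0.245. Such a fit leaves 1 group with a single array, whose spread is taken from the rest.

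Next, mice on low-dose RE were compared with those on water, all after TST. None of the 9 passed the study's threshold, which 3.54% of all rows passed (limma; 0 rows at an adjusted p under 0.05, 787 at an unadjusted p under 0.05). Aif1 averaged 8.39 with low-dose RE and 7.70 with water, a log2 difference of 0.685 (interval -1.17 to 2.54), and P2ry12 averaged 11.97 with low-dose RE and 11.37 with water, a difference of 0.60 (-0.85 to 2.05). Csf1r was at 0.41 (-0.71 to 1.53), C1qa at 0.375 (-0.65 to 1.40), C1qb at 0.32 (-0.50 to 1.14), Cx3cr1 at 0.10 (-0.67 to 0.87) and Trem2 at 0.08 (-0.91 to 1.07). Tmem119 was at -0.16 (-0.99 to 0.67) and C1qc at -0.075 (-0.62 to 0.47). In all 9 the groups overlapped, where 13.1% of all rows had both low-dose arrays above and 11.9% below. The median of the 9 was 0.32, where that of all rows was 0.015, and their lowest limma adjusted p was 0.955. The positive differences went with water with TST replicate 2: without it P2ry12 was at -0.57, Csf1r at -0.40, Aif1 at -0.585, C1qa at -0.295, C1qb at -0.185 and Trem2 at -0.655, none past the threshold, which 3.49% of all rows passed. Without replicate 1 instead, P2ry12 was at 1.77, Csf1r at 1.22, Aif1 at 1.955, C1qa at 1.045, C1qb at 0.825 and Trem2 at 0.815. Cx3cr1 was then at 0.31, C1qc at -0.01 and Tmem119 at -0.015.

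High-dose RE was set against water with TST in the same way. Again none of the 9 passed the study's threshold, which 3.17% of all rows passed (limma; 0 rows at an adjusted p under 0.05, 705 at an unadjusted p under 0.05). Aif1 averaged 8.79 with high-dose RE and 7.70 with water, a log2 difference of 1.09 (interval -0.77 to 2.95). C1qa averaged 7.93 with high-dose RE and 7.28 with water, a difference of 0.645 (-0.38 to 1.67), and P2ry12 averaged 12.00 with high-dose RE and 11.37 with water, a difference of 0.63 (-0.82 to 2.08). Trem2 went the other way, with means of 5.97 with high-dose RE and 6.56 with water, a difference of -0.59 (-1.58 to 0.40). Csf1r was at 0.335 (-0.78 to 1.45), C1qb at 0.175 (-0.64 to 0.99), C1qc at 0.055 (-0.49 to 0.60), Cx3cr1 at 0 (-0.77 to 0.77) and Tmem119 at -0.205 (-1.03 to 0.62), with both high-dose arrays of Tmem119 below both water arrays, as 15.2% of all rows were (15.3% were above). The median of the 9 was 0.175, where that of all rows was 0.01. The lowest limma adjusted p of the 9 was 0.973. Without water with TST replicate 2 Trem2 was at -1.325 and past the threshold (SE 0.293; limma, adjusted p = 0.998), which 3.09% of all rows passed, and P2ry12 was at -0.54, Csf1r at -0.475, Aif1 at -0.18, C1qa at -0.025, C1qb at -0.33, Cx3cr1 at -0.21 and C1qc at -0.01. Without replicate 1 instead, 4 of the 9 (P2ry12, Csf1r, Aif1 and C1qa) passed, as did 17% of all rows, with P2ry12 at 1.80 (limma, adjusted p = 0.0232). Both extract comparisons and the TST comparison share the arrays of water with TST, so their signs are not independent of each other.

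**Figure D4:**
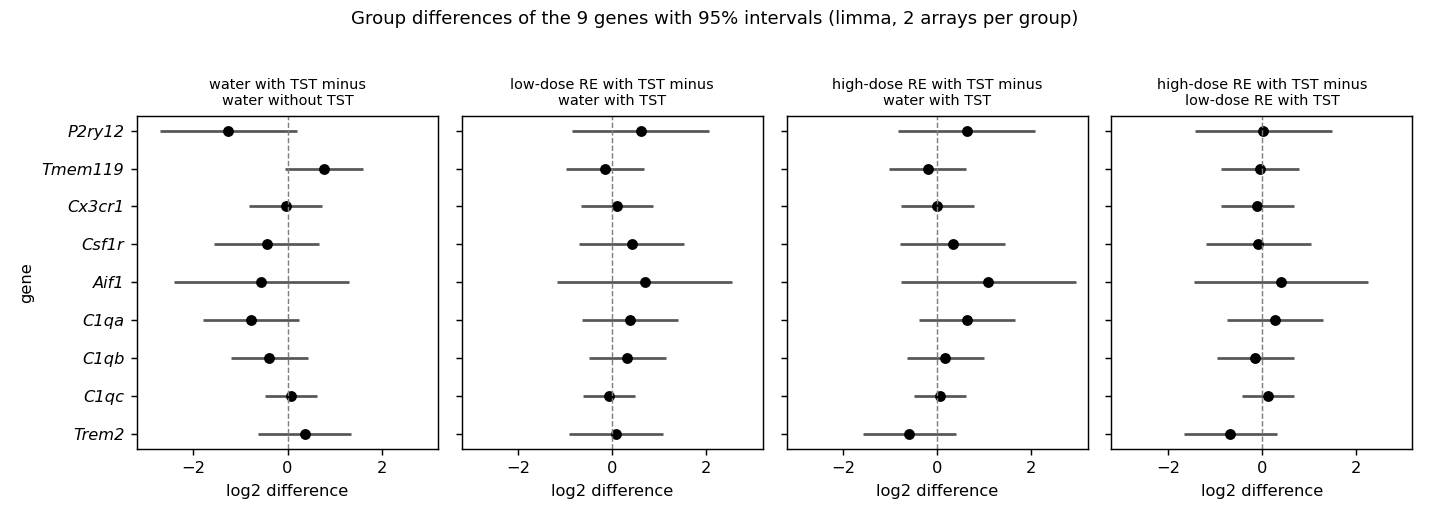
Log2 difference of each of the 9 genes in the 4 comparisons, with 95% intervals from limma on 2 arrays per group. Every interval includes 0.

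In the comparison of the doses the differences do not use the water arrays, but the SE does, since all 8 arrays share 1 estimate of the spread. Of the 9, none passed the study's threshold, which 1.91% of all rows passed (limma; 0 rows at an adjusted p under 0.05, 425 at an unadjusted p under 0.05). Trem2 averaged 5.97 with the high dose and 6.64 with the low dose, a log2 difference of -0.67 (interval -1.66 to 0.32, SE 0.434; limma, adjusted p = 1). Both high-dose arrays were below both low-dose arrays, as 13.7% of all rows were (12.9% were above). In a fit of these 4 arrays alone Trem2 was past the threshold, as were 2.39% of all rows, and so it was on leaving out either array of water with TST (SE 0.239 in both fits, 2.87% of all rows). Aif1 was at 0.405 (-1.45 to 2.26), C1qa at 0.27 (-0.75 to 1.29) and C1qc at 0.13 (-0.42 to 0.68), with C1qb at -0.145 (-0.96 to 0.67). The homeostatic genes lay between -0.10 (Cx3cr1) and 0.03 (P2ry12), and the median of the 9 was -0.045, where that of all rows was -0.005. Over all 4 groups, the limma F-test gave unadjusted p-values of 0.236 (Tmem119) to 0.989 (Cx3cr1) for the 9 genes, and 1.82% of all rows had one under 0.05 and 0 an adjusted one.

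Other genes of the same cells and pathways were read in the same fits from lists that held 141 measured genes in all. Rasal3, Gpr183, Cst7, C9, C2, C5ar2 and Vav1, all named below, lay below the median of all values, 7.47, on all 8 arrays. For them too, no detection call shows whether such signals are above background. Past the study's threshold were 3 of 141 (2.13%) for water with TST against water without TST, 5 (3.55%) for low-dose RE, 5 (3.55%) for high-dose RE, each against water with TST, and 3 (2.13%) for high against low dose. The shares of all rows were 2.55%, 3.54%, 3.17% and 1.91%, and 0 genes passed the adjusted test by limma in any of the 4. With water with TST replicate 2 left out, 5 (3.55%) passed for TST, 9 (6.38%) for low-dose RE and 6 (4.26%) for high-dose RE, beside 3.29%, 3.49% and 3.09% of all rows. Of the calls on all arrays, 0 of 3 for TST, 4 of 5 for low-dose RE and 2 of 5 for high-dose RE were among them.

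Of 14 other homeostatic microglia genes, 12 had negative differences with TST (median -0.367), as had 49.2% of all rows, and 2 passed the study's threshold: Cd33, a sialic acid receptor, at -0.98 (SE 0.378), and Rasal3, a Ras GTPase-activating protein of blood cells, at -0.785 (SE 0.261). Cd33 stood at 6.55 and 6.34 in water with TST, against 7.13 and 7.72 in water without TST, so both water arrays with TST were lower. Without water with TST replicate 2 neither passed, at -0.875 and -0.605, and 9 of the 14 were negative (median -0.1125). With low-dose RE 12 of the 14 were positive and with high-dose RE 10 were (medians 0.273 and 0.325, none past the threshold), beside 51.9% and 51.2% of all rows. With that array left out, 5 and 6 were positive (medians -0.09 and -0.07). Gpr34, a lysophosphatidylserine receptor, had the largest at 0.83 and 0.905, and -0.025 and 0.05 without it. Selplg was at 0.60 with high-dose RE (-0.115 without the array) and Cd33 at 0.80 with low-dose RE (0.695 without it). Gpr183, an oxysterol receptor, was lower at the high than at the low dose (-0.72, SE 0.285), with 4.25 and 4.14 at the high dose, against 4.93 and 4.90 at the low dose. On water with TST replicate 2, 7 of the 14 had their lowest value, where 20.7% of all rows lay below the other 7 arrays.

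Genes shared by microglia and other macrophages had medians of -0.183 for TST, 0.238 for low-dose RE, 0.248 for high-dose RE and 0.0175 for the doses over 20 genes. Leaving out water with TST replicate 2 gave medians of 0.12, -0.025 and -0.005 in the first 3. Cyth4, a guanine nucleotide exchange factor of blood cells, was higher with low-dose RE (0.965, SE 0.270), with 7.39 and 7.56 in low-dose RE, against 6.81 and 6.21 in water with TST, and still passed without water with TST replicate 2 (0.665). Ctss, the lysosomal protease cathepsin S, was higher with low-dose RE at 0.73 (SE 0.309), and Fcgr3, an Fc receptor, with high-dose RE at 0.885 (SE 0.335); neither passed without that array, at 0.36 and 0.485. The largest differences elsewhere in this list were Hpgds at -0.645 and Ly86 at -0.50 for TST (0.015 and 0.125 without the array), and Tlr7 at 0.69 and Ctss at -0.565 for the doses, none past the threshold. On water with TST replicate 2, 11 of the 20 had their lowest value, where 20.7% of all rows lay below the other 7 arrays.

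Disease-associated microglia genes, the set that rises around plaques and dying neurons, had 3 of 19 (Lpl, Ctsl and Igf1) lowest on water with TST replicate 2. On that array 20.7% of all rows lay below the other 7 arrays. The mean of the 19 genes lay between -0.06 and 0.06 on all 8 arrays. None passed in any comparison (medians -0.03, -0.02, 0.05 and 0.14 for TST, low dose, high dose and high against low dose). The largest differences were those of Cst7, a cystatin, at -0.38 for TST and 0.56 for high-dose RE, and with water with TST replicate 2 left out it passed the threshold in both (-0.795 and 0.975). Lpl was at -0.32 for TST (0.085 without the array), Igf1 at 0.45 for high-dose RE (0.025), Cd63 at -0.42 (-0.205) and Itgax at 0.40 (0.45) for low-dose RE, and Cybb at -0.535 and Cst7 at 0.32 for the doses.

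**Figure D5:**
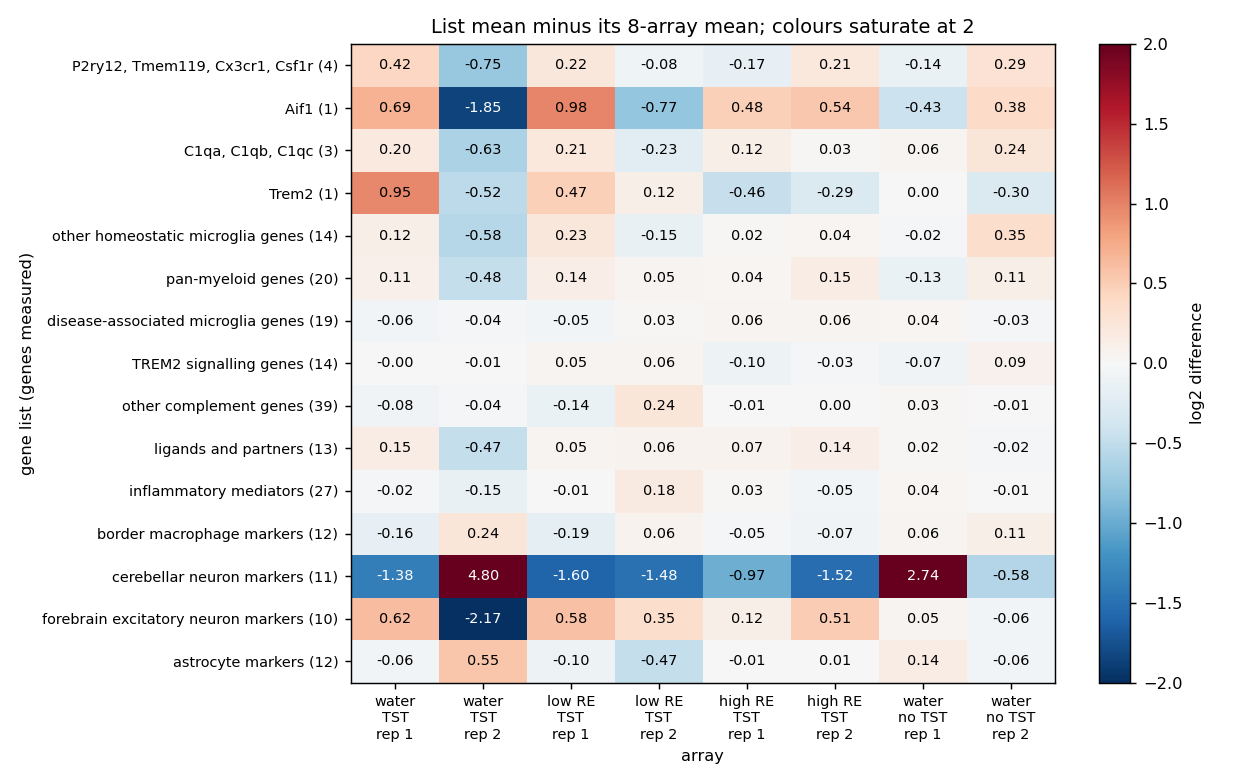
Mean of each gene list on each array minus its 8-array mean, in log2 units, with the number of measured genes in parentheses. Lists of homeostatic and pan-myeloid genes are lowest on water with TST replicate 2, at -0.58 and -0.48, and disease-associated genes stay between -0.06 and 0.06.

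Downstream and beside C1q, 39 other complement genes had medians of -0.065 for TST, 0.045 for low-dose RE, 0.14 for high-dose RE and -0.03 for the doses. With TST, Cd59b, an inhibitor of the membrane attack complex, was lower (-0.615, SE 0.259), and its difference was -0.665 with water with TST replicate 2 left out. With low-dose RE, C9, a component of that complex, was higher (0.855, SE 0.356), and 1.165 without that array. With high-dose RE, Colec12, a scavenger receptor with a collagen-like stalk, was lower (-1.08, SE 0.340), as were C2, the protease of the classical pathway convertase (-0.825, SE 0.285), and Serping1, the C1 inhibitor (-0.795, SE 0.278), while C5ar2, a receptor for C5a, was higher (0.665, SE 0.230). C2 stood at 5.27 and 4.76 with high-dose RE, against 5.82 and 5.86 in water with TST. Colec12 and C2 still passed without water with TST replicate 2 (-1.215 and -0.805), and Serping1 and C5ar2 did not (-0.48 and 0.47). Colec12 was also lower (-0.92, SE 0.340) and C5ar2 higher (0.72, SE 0.230) at the high than at the low dose.

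TREM2 signalling genes, 14 in number, had medians between -0.08 and 0.07 in the 4 comparisons, and of 0.02, 0 and -0.125 for TST, low dose and high dose without water with TST replicate 2. The exchange factor gene Vav1 was higher with low-dose RE (0.78, SE 0.264), with 6.32 and 6.63 in low-dose RE, against 5.69 and 5.70 in water with TST, and at 0.785 without that array. No other passed. In the other comparisons the largest were Hcst at 0.62 (0.24 without the array) and Vav1 at -0.27 (-0.275) for TST, Hcst at -0.495 (-0.115) and Card9 at 0.35 (0.215) for high-dose RE, and Vav1 at -0.595 and Plcg2 at -0.58 for the doses. Tyrobp, the adaptor of TREM2, named here after its values were seen, stood at 5.99 and 6.21 in water with TST, 6.45 and 5.96 in low-dose RE, 5.71 and 5.92 in high-dose RE, and 5.92 and 5.99 in water without TST, and the low-dose arrays lay above the high-dose arrays by only 0.04, a separation in that direction that 13.7% of all rows had.

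Ligands and partners of the microglial receptors had 0 of 13 past the threshold in the 4 comparisons. Cx3cl1, the ligand of CX3CR1, had the largest differences: -0.875 for TST, 1.345 for low-dose RE and 1.175 for high-dose RE, and 0.57, -0.10 and -0.27 without water with TST replicate 2. It stood at 13.44 and 10.55 in water with TST, against 12.78 and 12.96 in water without TST. Il34, a ligand of CSF1R made by neurons, stood at 9.09 and 7.83 in water with TST, against 9.14 and 9.43 in water without TST, with differences of -0.825 for TST and 0.76 for high-dose RE (-0.195 and 0.13 without the array). Both ligand genes were thus lowest on the array where forebrain neuron markers and Csf1r were lowest. Csf1, the other ligand, named after its values were seen, was at 10.89 there, the second lowest of its values, which ran from 10.80 to 11.27. Tgfb2 was at 0.845 for low-dose RE (-0.105 without the array) and -0.35 for the doses, and Cd200r1 at 0.475 for the doses.

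Of 27 inflammatory mediators, 1 passed the threshold in 1 comparison, low-dose RE against water with TST, where 3.54% of all rows passed. Il1a, which encodes the cytokine interleukin 1 alpha, was higher with low-dose RE (1.11, SE 0.342; 1.45 without water with TST replicate 2), with 5 and 5.84 in low-dose RE, against 3.97 and 4.65 in water with TST. With high-dose RE it was at 0.64, and past the threshold at 0.98 without that array. Its values of 4.94 and 5.07 in water without TST lay above both arrays of water with TST and overlapped those of low-dose RE, and all 8 lie below the median of all values. Where none passed, the largest differences were Isg15 at -0.775 and Casp1 at -0.715 for TST (-0.735 and -0.41 without the array), Ptgs2, the cyclooxygenase 2 gene, at 1.225 for high-dose RE (-0.35 without it), and Il1b at -0.475 and Il1a at -0.47 for the doses. Ptgs2 was at 5.39 on water with TST replicate 2, against 7.40 to 8.54 on the other 7 arrays. For low-dose RE, looked at after its values were seen, it was at 1.505, the largest difference named in the list, did not pass, and was at -0.07 without the array; for TST it was at -0.50, and past the threshold at 1.075 without it. Medians of the list were -0.07, 0.155, 0.045 and -0.08 for TST, low dose, high dose and the doses, and 0.03, 0.11 and 0.01 in the first 3 without the array.

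Markers of border macrophages, which share C1q and Csf1r with microglia, had 0 of 12 past the threshold in any comparison, and their mean was highest on water with TST replicate 2, at 0.24, against -0.19 to 0.11 on the other 7 arrays. Of these 12 genes, 3 had their highest value on that array and 2 their lowest. The mean of 12 astrocyte markers was also highest there, at 0.55. Of the astrocyte markers, 7 had their highest value on that array and 2, Slc1a2 and Aldh1l1, their lowest.

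The genes with the courses most like the homeostatic mean over the 8 arrays, by the root mean square difference of centred values, were Scp2 (0.0852), Nol3 (0.0886), Cyb561 (0.0961), Agrn (0.0980) and Rpusd1 (0.102). Those most like the C1q mean were Rab5c (0.0489), Atmin (0.0628), Tmem29 (0.0659), Tmod2 (0.0691) and Nus1 (0.0710). Each of these 10 genes was lowest on water with TST replicate 2, for example Scp2 at 9.90, against 10.45 to 10.97 on the other 7 arrays, and Rab5c at 9.71, against 10.17 to 10.61. The homeostatic and C1q means were themselves lowest on that array, at -0.75 and -0.63. A low value there thus follows from how the genes were picked and is no separate result.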

How the data were processed

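The deposited log2 values, 1 column for each of 8 arrays, were made by the authors by RMA (robust multichip averaging), run in version 4.0.1 of the Transcriptome Analysis Console, per the submitters' description of the design. They were kept as deposited. They run from 2.76 to 19.79, and 1359 exceed 16, the limit of a 16-bit scanner, so the scale may be stretched, by a step not named in the labels. Array medians were 7.45 to 7.51. No depth or detection call comes with them, so precision is limited by the number of arrays. Rows were named through GEO's platform annotation, and the row with the highest mean was kept for each gene.

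Group means were fitted to all 8 arrays with limma 3.58.1 (lmFit, eBayes) in R 4.3.3, with 4 residual and 4.30 prior degrees of freedom, two-sided, Benjamini-Hochberg over 22206 rows, and tested on simulated data. The study's threshold is a fold above 1.2 (0.263 in log2) with an unadjusted p under 0.05. The members and lists were chosen with earlier results of these data known. In each list, up to 4 genes past the threshold were named, or else up to 2 with the largest difference. For the root mean square difference, values were centred on the 8-array mean and 5 genes named per mean. The alternatives are given at the end. Replicate numbers come from the titles, which do not say that they pair samples.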

Additional observations from a re-analysis of the deposited data

How the results depend on the processing

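Under the replicate block, the trended and robust prior, quantile normalization, a filter that drops the dimmest 25% of rows, the fit of only the groups compared and the methods' analysis of variance on the 4 arrays compared, no difference of the 9 genes reversed, and none passed the study's threshold except Trem2 for high against low dose (-0.67) in the fit of only the groups compared, which makes 1 gene where the fit of all arrays has 0. The numbers of the titles did not pair the arrays by the correlation of deviations from the group means, which lay between -0.293 and 0.169 over the 6 pairs of groups. The replicate block called 0 of the 9 in each comparison and moved the count of list genes past the threshold to 5 for TST, where it was 3 without the block. Other counts of list genes that moved by over 1.5 times were 3 (low dose) and 5 (high against low dose) in the fit of only the groups compared, 3 (high dose) and 1 (high against low dose) without the dim rows, and 6 (TST), 2 (low dose) and 7 (high against low dose) by the analysis of variance. Adding Aif1 to the homeostatic mean and Trem2 to the C1q mean gave indices of 0.121 for TST, -0.299 for high-dose RE and -0.147 for high against low dose, where they were -0.124, 0.102 and 0.133 without them.

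Leaving out 1 array at a time reversed many directions; the cause was not tested beyond naming the array, which was most often water with TST replicate 2. The ranges for TST in water were P2ry12 -2.43 to -0.09, Tmem119 0.245 to 1.295, Cx3cr1 -0.25 to 0.17, Csf1r -1.25 to 0.37, Aif1 -1.825 to 0.715, C1qa -1.45 to -0.11, C1qb -0.895 to 0.115, C1qc -0.035 to 0.175 and Trem2 -0.37 to 1.1. The ranges for low-dose RE against water with TST were P2ry12 -0.57 to 1.77, Tmem119 -0.415 to 0.095, Cx3cr1 -0.21 to 0.41, Csf1r -0.4 to 1.22, Aif1 -0.585 to 1.955, C1qa -0.295 to 1.045, C1qb -0.185 to 0.825, C1qc -0.205 to 0.055 and Trem2 -0.655 to 0.815. The ranges for high-dose RE against water with TST were P2ry12 -0.54 to 1.8, Tmem119 -0.35 to -0.06, Cx3cr1 -0.37 to 0.37, Csf1r -0.475 to 1.145, Aif1 -0.18 to 2.36, C1qa -0.025 to 1.315, C1qb -0.33 to 0.68, C1qc -0.105 to 0.215 and Trem2 -1.325 to 0.145. The ranges for high against low dose were P2ry12 -0.21 to 0.27, Tmem119 -0.3 to 0.21, Cx3cr1 -0.47 to 0.27, Csf1r -0.385 to 0.235, Aif1 -0.47 to 1.28, C1qa -0.145 to 0.685, C1qb -0.25 to -0.04, C1qc -0.03 to 0.29 and Trem2 -0.845 to -0.495. In the order of these comparisons, the count of the 9 genes past the threshold ranged over 0 to 5, 0 to 6, 0 to 4, 0 to 1, that of list genes over 2 to 24, 4 to 19, 3 to 21, 2 to 9, and the C1q index over -0.295 to 0.0462, -0.201 to 0.14, -0.135 to 0.339, -0.105 to 0.37. The F-test called 0 to 4 of the 9 at an unadjusted p under 0.05. Apart from the doses, the highest counts came without water with TST replicate 1, where the share of all rows past the threshold was also higher. For the doses, the gene past the threshold came without either array of water with TST, and the highest list count without low-dose RE replicate 1.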

Other observations

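Blood immune cells were read from 2 further groups of markers. The study's threshold was passed by 2.55% of all rows for TST, 3.54% for low-dose RE, 3.17% for high-dose RE and 1.91% for the doses. All genes named here lay below the median of all values, 7.47, on all 8 arrays. No detection call shows whether such signals are above background. Of 10 measured monocyte and granulocyte genes, Ccr2, the chemokine receptor of monocytes, was lower with TST (-0.78, SE 0.251), with 4.49 and 4.36 in water with TST, against 5.48 and 4.93 in water without TST, and still past the study's threshold without water with TST replicate 2 (-0.715). Plac8 was higher with high-dose RE than with water under TST (0.705, SE 0.25) and than with the low dose (0.74, SE 0.25), and Ngp was higher with high-dose RE (0.58, SE 0.252); without that array Plac8 (0.695) and Ngp (0.44) did not pass against water. Of 10 lymphocyte genes, Cd3d, a chain of the T cell receptor complex, was higher with low-dose RE (0.97, SE 0.347; 1.135 without that array), and Klrb1c, an NK cell receptor, was lower at the high than at the low dose (-0.995, SE 0.282). All limma adjusted p-values of these genes were between 0.946 and 1.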
